A study of Mus musculus with 2 samples.

Results

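The CDK inhibitors Cdkn1a, Cdkn1b, Cdkn1c, Cdkn2b and Cdkn2c, the D cyclins Ccnd1, Ccnd2 and Ccnd3, and Trp53 with its regulator Mdm2 were followed in mouse primary chondrocytes under cyclic tensile strain. These 10 genes were chosen by name, among 20660 genes that the array names through RefSeq transcripts, and 10 of the 10 were well above background on both arrays. RNA was hybridised to 2 one-colour Agilent arrays, 1 of unstrained cells before loading and 1 of cells 24 h after loading. Both groups were primary chondrocytes of 6-day-old C57BL/6J mice, grown for 48 h in fibronectin-coated silicon stretch chambers before strain of 10% elongation at 0.5 Hz for 30 min was applied to the loaded cells. How many animals gave the cells is not given in the sources used here, and an unloaded culture at 24 h was not analysed here, so that loading and a further 24 h of culture cannot be told apart. Since each time point has a single array, the values carry no replicate check and were not tested. Precision is limited by the number of arrays.

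The 14 chondrocyte markers listed were all well above background on both arrays, none passed 2-fold, and their summed intensity was 1441032 before and 1441275 at 24 h, with the probe of Col2a1 (type II collagen) the brightest. The sum holds members of both directions, as the log2 ratio was -0.82 for Col11a1, -0.86 for Chad and 0.56 for Matn1. Within 100 µm the spot of Col11a1 had 3 lower neighbours and that of Matn1 had 4. The cultures also held signal of other lists. All 7 matched macrophage markers were detected, with a summed intensity of 4322 before and 4105 at 24 h and Csf1r the brightest. The main probe of Csf1r read 3646 before and 3288 at 24 h, its other probes had log2 ratios of 0.20 and 0.27, and Lyz2 had 0.46. C1qa had -0.42 and Fcgr3 had -0.16, which came to -0.18 and 0.03 with normexp correction, and C1qb had -0.10. Of the 7 genes 4 lay below 0 and 3 above, with a median of -0.10 that turned to 0.02 with spike-in scaling. The leukocyte gene Ptprc had a dim signal of 20.9 before and 46.1 at 24 h, a log2 ratio of 1.14 that came to 0.40 with normexp background correction, at a spot with 6 higher neighbours within 100 µm. The 7 fibroblast-type markers were detected with sums of 246845 and 252952 and Col1a2 the brightest. Of 6 endothelial markers, Pecam1 and Kdr were detected, Cdh5, Emcn, Tek and Cldn5 were not above background, and the sums were 12902 and 12530. The main probe of Kdr, the brightest, made up 12774 of the first sum, and its other probe was not above background. Of 7 skeletal muscle markers 4 were detected (Ckm, Myod1 and Des were not), the sums were 1889 and 1559, and Acta1 was the brightest. These sums also hold both directions, as the log2 ratio was 0.64 for Myh3 and -0.78 for Tnnt3. The other probe of Myh3 was higher too, and that of Tnnt3 was lower too. Of the 4 detected genes 1 lay above 0 and 3 below. Of the 5 matched osteoblast markers 4 were detected and Dmp1 was not, with sums of 35699 and 34828. Col1a1, which is also among the fibroblast-type markers, was the brightest and made up 34458 of the first sum. Ibsp fell past 2-fold with a log2 ratio of -2.06 that came to -1.36 with normexp correction. Sp7 had -0.64, which came to -0.41 with that correction, while Bglap2 had 0.44. The part of the cells behind these lists in the values below was not tested. In these bulk samples, fewer cells of a type and less RNA per cell cannot be told apart.

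Entry into the cell cycle is driven by D cyclins, which bind CDK4 and CDK6 and start the phosphorylation of the retinoblastoma protein, so that E2F factors are freed. INK4 inhibitors (the Cdkn2 genes) bind CDK4 and CDK6 directly, whereas CIP/KIP inhibitors (the Cdkn1 genes) bind cyclin-CDK complexes more broadly. p53 is a transcription factor stabilised by stress that activates Cdkn1a and Mdm2, and the MDM2 protein in turn marks p53 for degradation. In the growth plate, D cyclins are known for sustaining the proliferation of chondrocytes and p57, the product of Cdkn1c, for the exit from the cycle that precedes hypertrophy.

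None of the 10 genes changed more than 2-fold between the arrays, and none passed 1.5-fold. Few genes did so in general. Of the 14231 genes well above background on both arrays, 0.668% passed 2-fold upward and 1.83% downward at 24 h, and 3.65% passed 1.5-fold upward and 5.84% downward. The log2 ratios, 24 h after minus before loading of intensities scaled to the 75th percentile of each array, ran from -0.56 to 0.48, with a median of -0.05 against -0.01 over all detected genes. The median of the set became 0.07 with spike-in scaling, which shifts all ratios upward by 0.12. The INK4 genes Cdkn2b and Cdkn2c were the lowest and Ccnd2 was the highest of the 10. On their brightest probes these 3 genes also lay further from 0 than 2 within-array errors, the scanner software's own error of both spots combined. That limit was passed upward by 7.64% and downward by 9.40% of detected genes, and by 1 and 2 of the 10 genes, and with 10 genes these counts are too near the general shares to be a result about the set.

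**Figure D1:**
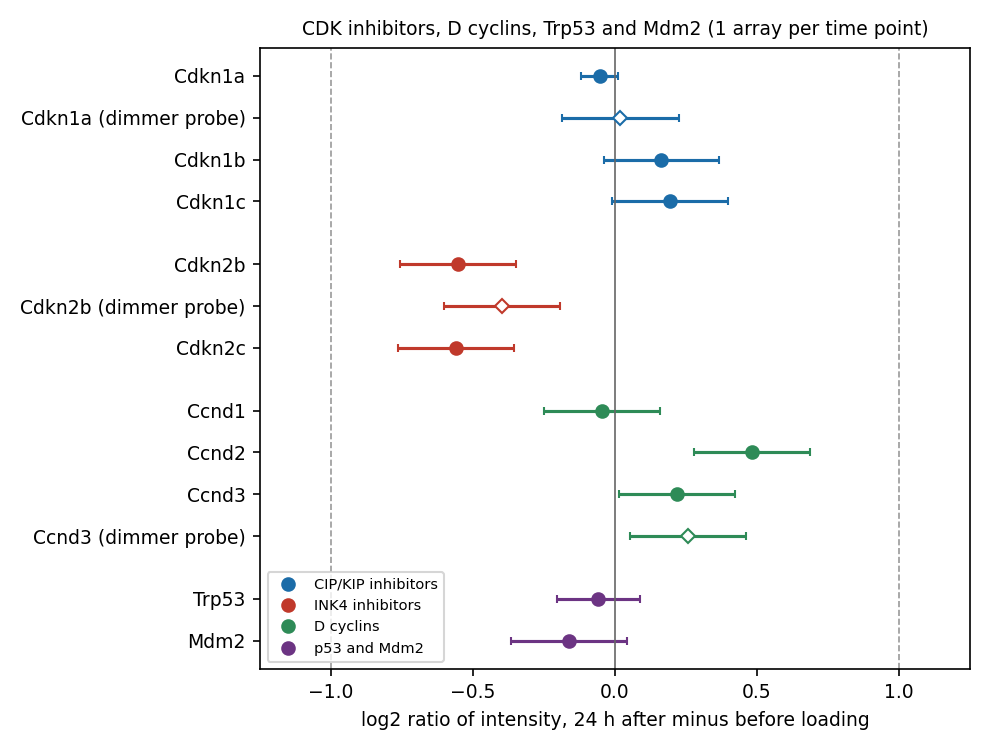
Log2 ratio of intensity (24 h after minus before loading, x axis) for each of the 13 probes of the 10 genes, coloured by role. Filled circles are the brightest probe of a gene, open diamonds a dimmer one, bars the within-array error, and dashed lines mark 2-fold; Cdkn2b and Cdkn2c lie near -0.55 and Ccnd2 at 0.48, while no probe reaches 2-fold.

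The INK4 genes were lower at 24 h. The intensity of Cdkn2b, which encodes p15INK4b, was 3173 before loading and 2162 at 24 h on its brighter probe, a log2 ratio of -0.55 (0.20, here and below the within-array error) or 1.47-fold lower. Its dimmer probe, of the same transcript, read 509 before and 386 at 24 h, a log2 ratio of -0.40 (0.21), so that both probes were lower and differed from each other by less than their errors. Cdkn2c, which encodes p18INK4c, read 1703 before and 1155 at 24 h, a log2 ratio of -0.56 (0.20) or 1.47-fold lower. Of all detected genes, 6.54% had a ratio at or below that of Cdkn2b and 6.39% at or below that of Cdkn2c. Under the 8 other ways of scaling, correcting or summarising the arrays, Cdkn2b lay between -0.55 and -0.44 and Cdkn2c between -0.56 and -0.44.

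The other INK4 genes were listed beside the set. Cdkn2a, the neighbouring protein-coding gene of Cdkn2b on chromosome 4, which encodes p16INK4a and p19ARF, read 734 before and 501 at 24 h, a log2 ratio of -0.55 (0.20). Its dimmer probe read 31.4 before and 16.2 at 24 h, where it was not well above background, and which of the 2 products either probe follows was not determined. Cdkn2d, which encodes p19INK4d, read 3272 before and 2396 at 24 h, a log2 ratio of -0.45 (0.20). The 4 INK4 genes, grouped with earlier results known, thus had log2 ratios from -0.56 to -0.45 on their brightest probes. Each of these lay beyond 2 within-array errors below 0, a limit that 9.40% of detected genes passed downward. The dimmer probe of Cdkn2b (-0.40) lay inside that limit. All 4 genes stayed below 0 under each scaling run, but Cdkn2d came inside the limit when arrays were scaled by their medians or to the spike-in controls (-0.33). The summed intensity of their brightest probes was 8882 before and 6214 at 24 h. Cdkn3, a phosphatase that acts on CDKs and is no INK4 protein, fell further, from 845 to 189, a log2 ratio of -2.16 (0.21).

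With scaling to the 75th percentile, the ratios of the CIP/KIP inhibitors lay within 1 within-array error of 0. That error is the software's estimate, with a median of 0.204 over detected genes. Repeated spots of 1 probe differed by less, with a median SD of 0.085 over 264 probes. The main probe of Cdkn1a, which encodes p21, was printed as 10 spots on each array. Before loading the spots ranged from 7862 over a median of 8291 to 8443, and at 24 h from 7219 over 7993 to 8348. The spots of the arrays overlapped. The mean log2 ratio was -0.05, with an SD between spots of 0.06, and 9 of the 10 spots were lower, by 0.19 on the log2 scale at most. This is the most finely measured value of the set, but spots of 1 array share its RNA and are no replicates of the condition. A second probe, of the transcript NM_001111099, was dimmer at 218 before and 221 at 24 h, a log2 ratio of 0.02 (0.21). The sign of Cdkn1a depended on the scaling, since its log2 ratio was 0.04 with median scaling and 0.06 with scaling to the spike-in controls.

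**Figure D2:**
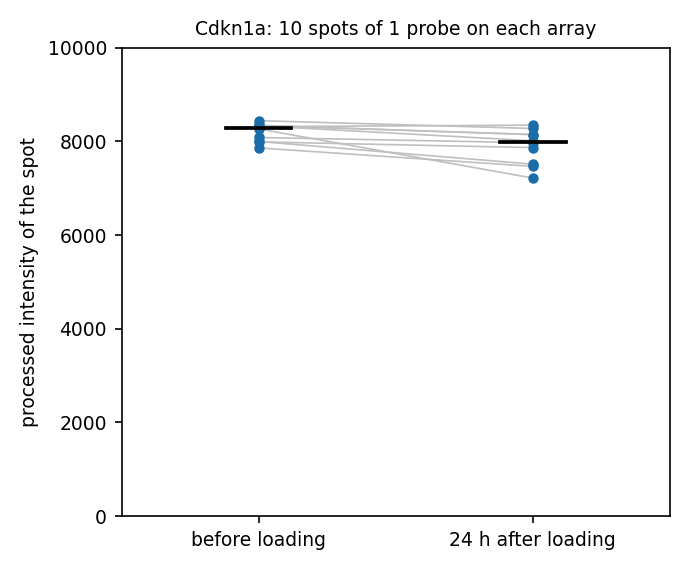
Processed intensity (y axis, from 0) of the 10 spots of the main Cdkn1a probe before and 24 h after loading. Points are spots, grey lines join the same position on both arrays and black bars are medians, 8291 before and 7993 at 24 h; the ranges overlap.

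Cdkn1b, which encodes p27, read 4284 before and 4797 at 24 h, a log2 ratio of 0.16 (0.20). Cdkn1c read 78697 before and 89900 at 24 h, a log2 ratio of 0.19 (0.20), and moved up to 0.35 with quantile normalization. Both ratios stayed above 0 under the 8 other settings. They passed 1 within-array error with median and spike-in scaling (0.26 and 0.28 for Cdkn1b, 0.29 and 0.31 for Cdkn1c), and Cdkn1c also did with quantile and loess normalization. The median of the 3 CIP/KIP genes was 0.16, and that of the pair of INK4 genes, the lowest of the 10, was -0.56. These medians describe few genes on single arrays, and their difference was not tested.

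Of the D cyclins, Ccnd2 had the highest ratio. Its intensity was 13150 before and 18372 at 24 h, a log2 ratio of 0.48 (0.20) or 1.40-fold higher, and 5.69% of detected genes had a higher ratio. With spike-in scaling it reached 0.60 and passed 1.5-fold, the only value of the 10 genes to do so under the 8 other settings. Ccnd3 read 20584 before and 23918 at 24 h on its brighter probe, a log2 ratio of 0.22 (0.20). On its other probe, of another transcript, it read 8249 and 9863, a log2 ratio of 0.26 (0.20), and the probes were thus higher by a similar amount. Ccnd1, a D cyclin known as a target of hedgehog and Wnt signals, read 5220 before and 5059 at 24 h, a log2 ratio of -0.04 (0.20), and turned to 0.05 and 0.07 with median and spike-in scaling.

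Trp53 was dim. Its probe lay on 2 spots that read 263 and 247 before and 235 and 255 at 24 h, so that 1 spot was lower and 1 higher, and the mean log2 ratio was -0.06 (0.15). The sign was turned by median and spike-in scaling, with spike-in scaling giving 0.06. Mdm2 read 16274 before and 14534 at 24 h, a log2 ratio of -0.16 (0.20), and lay between -0.18 and -0.05 under the other settings. Neither differed between the arrays by more than 1 within-array error.

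**Figure D3:**
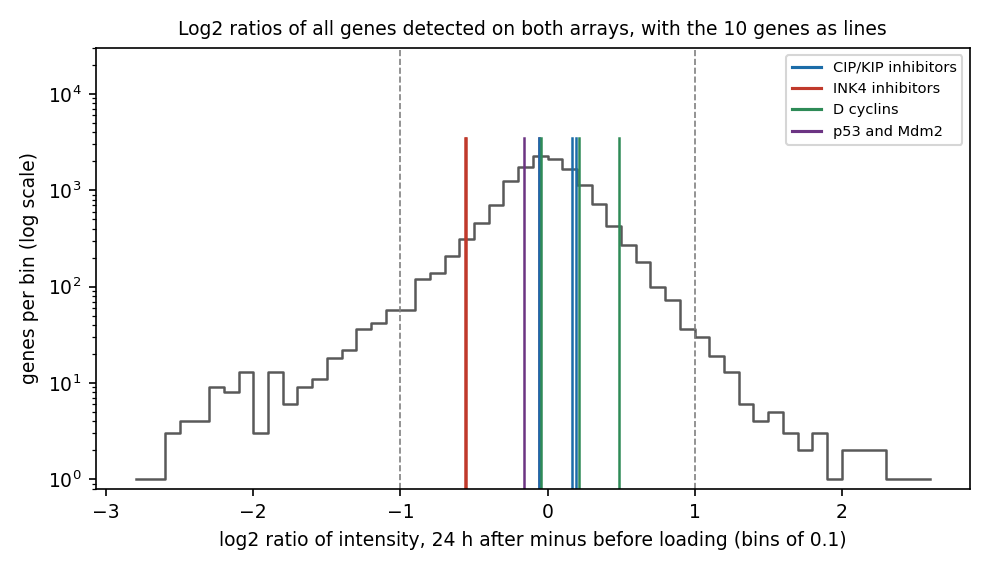
Number of genes (y axis, log scale) in bins of 0.1 of the log2 ratio (x axis) for the 14231 genes detected on both arrays, as a grey step line, with the brightest probes of the 10 genes as vertical lines coloured by role and 2-fold as dashed lines. The red pair, Cdkn2b and Cdkn2c, marks the low end of the set, and Ccnd2 at 0.48 the high end.

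Among 11 genes of G1 kinases, their activating subunits, the phosphatase gene Cdc25a and cyclins E and A, 9 were detected. Their median log2 ratio was 0.12, with 0 past 2-fold upward and 1 downward, beside 0.668% and 1.83% of all detected genes. That median came to 0.29 when the probes of a gene were averaged and to 0.03 with normexp correction. Cdk7, the CDK-activating kinase, had -0.16 on its main probe and 0.99 on a dim one. The single gene past 2-fold was Ccna2, cyclin A2 of S and G2 phase, which fell from 2082 to 596, a log2 ratio of -1.80 (0.20). Cdk4 read 31253 before and 31072 at 24 h, a log2 ratio of -0.01 that turned to 0.11 with spike-in scaling, and its other probes had 0.08 and 0.05. Cdk6 was dim at 32.9 before and 46.4 at 24 h, a log2 ratio of 0.50 with an error of 0.33, which came to 0.03 with normexp correction. Ccnh, the cyclin of the CDK-activating kinase, had 0.47 and Cdk2 had 0.43, which came to 0.36 and 0.27 with normexp correction. On neither array was Ccne2 or Ccna1 well above background.

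Of 17 genes of the retinoblastoma and E2F families and their partners, 17 were detected and 0 passed 2-fold, with a median of 0.11. On the main probes the log2 ratios furthest from 0 were those of the pocket proteins Rbl2 (0.51, but 0.24 with normexp correction) and Rbl1 (0.43), of E2f8 (-0.41), an E2F repressor, and of E2f2 (0.37), whose spot had 5 lower neighbours. The second probe of Rbl1 had 0.13. E2f7 had 0.23 on its main probe and -0.52 on its other one, with -0.15 as their mean. Of 15 matched genes for the turnover of cyclins and CDK inhibitors, 15 were detected and 0 passed 2-fold, with a median of -0.04 that turned to 0.07 with spike-in scaling. Skp2 was not matched. On the main probes the largest were Fbxw7 (-0.44), a ubiquitin ligase subunit for cyclin E whose other probe had -0.12, Gsk3b (0.31, and 0.54 and 0.15 on its other probes), a kinase that marks cyclin D1 for export and degradation, Cul4b (-0.23, and 0.03 on its other probe) and Dtl (-0.23). Fbxo31 had 0.07 on its main probe and -0.42 on its other one, with -0.17 as their mean. Rbx1 had -0.18 on its main probe, and -0.28 and 0.27 on its other probes.

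Among the regulators of p53, 19 of 19 matched genes were detected and 0 passed 2-fold, with a median of 0.05 that came just below 0 when a gene's probes were averaged. Mdm4, the relative of Mdm2 that inhibits p53, read 256 before and 355 at 24 h (log2 ratio 0.47). Its other probe read 293 before and 210 at 24 h (-0.48), and no direction can be given. The p53 relative Trp73 had 0.56, with both its other probes not above background. Trp63, the other relative in the list, had 0.08 on its main probe and -0.57 on its other one, with -0.24 as their mean. The kinase gene Hipk2 had 0.54 and -0.22 on its 2 probes, Sirt1, a deacetylase of p53, had -0.47, and Chek2, a DNA damage kinase, had -0.37. Trp53bp1 had 0.25 on its main probe and 0.91 on a dim one, which read 31.7 before and 59.5 at 24 h.

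Of 30 matched p53 targets, 29 were detected, 0 passed 2-fold upward and 2 downward, beside 0.668% and 1.83% of all detected genes, with a median of -0.14 that came to -0.04 under median and -0.02 under spike-in scaling. Gtse1 fell from 694 to 199, a log2 ratio of -1.80 (0.21). Its product is known as a microtubule-bound protein of G2 phase that restrains p53. Pmaip1, which encodes the apoptosis protein NOXA, fell from 238 to 114, a log2 ratio of -1.06 (0.21), and came inside 2-fold with normexp correction (-0.74) and with median and spike-in scaling. The stress kinase gene Plk2 (-0.88), Rrm2b (-0.62), a subunit of ribonucleotide reductase at a spot with 4 lower neighbours, and Pidd1 (-0.55) came next. With normexp correction Rrm2b came to -0.40 and Pidd1 to -0.29. Fbxw7 is also in this list. Eda2r was well above background before loading only, at 24.0, and read 14.5 at 24 h with a within-array error of 0.52 on the log2 scale, so that no fold is given. Tigar, which limits glycolysis, had 0.56 and 0.53 on its 2 probes. Beyond 2 within-array errors of 0, 1 of the 29 targets was higher and 7 were lower, beside 7.64% and 9.40% of all detected genes, but under spike-in scaling Perp, Pidd1 and Fbxw7 came inside that limit and Sesn1 and Apaf1 passed it upward.

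Among 27 upstream regulators of D cyclins and CDK inhibitors, 24 were detected, 0 passed 2-fold upward and 3 downward, beside 0.668% and 1.83% of all detected genes, with a median of -0.29 that came to -0.17 under spike-in scaling. Ihh, Indian hedgehog, fell from 586 to 237 (log2 ratio -1.30), and Gli1, the transcription factor that hedgehog signals induce, from 2011 to 975 (-1.04). Fosl1 of the AP-1 family fell from 98.7 to 45.0 (-1.13), and Fos had -0.98. With normexp correction Fos came to -0.62, Gli1 (-0.91) and Fosl1 (-0.55) came inside 2-fold, and Gli1 also did with median and spike-in scaling. When 2-fold had to be passed by more than 2 within-array errors, 0 of these genes did so. Beyond 2 within-array errors of 0, 0 were higher and 11 of the 24 were lower, beside 7.64% and 9.40% of all detected genes, but under spike-in scaling Myc (-0.22), Ezh2 (-0.30), Smad3 and Hes1 came inside that limit and Tcf7 passed it upward.

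Of 10 proliferation markers, 7 fell past 2-fold and 0 rose, beside 1.83% lower and 0.668% higher of all detected genes. Their median log2 ratio, -1.38, was the lowest of the lists examined. By more than 2 within-array errors, 5 of the 7 passed 2-fold. Mki67 fell from 4521 to 1556 (-1.54, and -1.53 on its other probe), Top2a had -1.45, Cdk1 had -1.27, Foxm1 had -1.32 (-0.70 as the mean over its probes), Birc5 had -2.13, Ccnb1 had -2.24 and Aurka had -2.34, whereas Mcm5 (-0.82), Pcna (-0.25) and Mcm2 (-0.12) stayed inside 2-fold. The 10 genes of the set spanned -0.56 to 0.48 on the same arrays.

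The collection of RefSeq promoter sequences used here (GRCm38.p6) held the 250 bases before the transcription start for 7 of the 10 genes, all but Cdkn1c, Ccnd1 and Ccnd2. These windows were searched on both strands for the GC box GGGCGG, the pentamer CCAAT of the CCAAT box, the TATA box TATAAA, the cell cycle homology region TTTGAA, the E2F site TTTCCCGC or TTTGGCGC and, by its name, the p53 response element. The p53 element was taken as 2 half-sites of 10 bases with no spacer and at most 1 mismatch outside the central bases of the half-sites, an allowance that was set after the sequence of Cdkn1a had been seen. Over 32851 windows of the same length, 32.7% held a GC box, 33.8% a CCAAT box, 12.4% a TATA box, 16% a cell cycle homology region, 1.3% an E2F site and 0.0578% a p53 element. The windows of Cdkn2b and Cdkn2c, which were lower together, and that of Cdkn1a, the classical p53 target, whose ratio lay within its error, are shown 5′ to 3′ in the direction of the gene, with the matches in capitals, also where the match lies on the other strand as in Cdkn2b. Cdkn2b lies at chr4:89311033-89311282 on the reverse strand, the first start of Cdkn2c at chr4:109666757-109667006 on the reverse strand, and the upstream start of Cdkn1a at chr17:29090729-29090978 on the forward strand.
Cdkn2b: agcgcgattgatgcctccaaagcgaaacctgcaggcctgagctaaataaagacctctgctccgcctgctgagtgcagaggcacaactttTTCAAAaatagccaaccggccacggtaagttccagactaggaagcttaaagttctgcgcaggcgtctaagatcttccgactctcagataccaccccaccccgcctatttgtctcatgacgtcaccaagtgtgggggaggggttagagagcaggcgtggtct
Cdkn2c: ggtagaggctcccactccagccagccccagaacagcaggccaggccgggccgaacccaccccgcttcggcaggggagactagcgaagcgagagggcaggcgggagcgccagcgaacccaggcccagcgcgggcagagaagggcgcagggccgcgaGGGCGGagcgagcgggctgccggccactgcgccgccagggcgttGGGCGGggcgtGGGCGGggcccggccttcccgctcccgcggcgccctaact
Cdkn1a: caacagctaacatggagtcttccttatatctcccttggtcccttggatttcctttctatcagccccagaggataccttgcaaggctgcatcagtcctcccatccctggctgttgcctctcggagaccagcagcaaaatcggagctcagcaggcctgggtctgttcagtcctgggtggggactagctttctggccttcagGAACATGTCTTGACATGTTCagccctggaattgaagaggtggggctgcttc

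Cdkn2b held 1 cell cycle homology match and no GC box, and the first start of Cdkn2c held 3 GC boxes and no other match. The second start of Cdkn2c held 0 matches. Of the other INK4 genes, Cdkn2a held 2 GC boxes and 1 E2F match at its first start and 0 matches at its second, and Cdkn2d held 3 GC boxes and 1 CCAAT box. The upstream window of Cdkn1a held 1 p53 element and no other match, and the window of its second start held 2 GC boxes and no p53 element. Mdm2 held 2 GC boxes and 1 CCAAT box, Trp53 1 CCAAT box and 1 TATA box, and Cdkn1b 1 GC box and 2 CCAAT boxes. The first start of Ccnd3 held 2 GC boxes, and its second start 1 GC box and 1 CCAAT box. Of the 7 genes of the set, 0 held an E2F match. A match is a description of letters and not of a bound factor.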

How the data were processed

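Total RNA was labelled with Cy3 and hybridised to Agilent mouse expression arrays, which lay on one slide. The authors deposited the background-subtracted intensity of each spot from Agilent Feature Extraction 10.10.1.1, not normalized between arrays, with its error and flags, and a value table that differed from it by at most 0.497%. A serum-free step is described in the methods for most experiments, but whether the loading had one is not said there.

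Outlier spots were left out (141 before loading, 138 at 24 h), log2 intensities were averaged per probe, and each array's 75th percentile (intensity 466.37 and 466.15) was subtracted. Of 55678 probes, 27235 matched a RefSeq transcript of GRCm38, used for names since the file headers name mm9. Before loading 59.1% of spots, and at 24 h 57.7%, were well above background. Detected genes had a median within-array error of 0.204, and 264 probes printed at least 8 times had a median SD between spots of 0.085.

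The members and lists were chosen with earlier results of these data known. Named were all 10 genes and, of each further list, genes past 2-fold and then the largest ratios up to 4 genes (6 for the p53 lists). Other genes (Cdk4, Cdk7, Cdc25a, E2f7, Fbxo31, Rbx1, Trp63, Mcm2, Mcm5, Pcna, Eda2r, Perp, Sesn1, Apaf1, Myc, Ezh2, Smad3, Hes1, Tcf7 and the markers given with values) were named after their values were seen. The values of a further marker list are not reported here. A total of 12 alternatives were planned (scaling, background correction, probe summary, array areas, detection and fold limits) and 1 was added. Python 3.11.15, numpy 2.4.6, pandas 2.3.3, scipy 1.17.1 and matplotlib 3.10.9 were used, with limma 3.58.1 in R 4.3.3 for normexp (offset 50) and loess.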

Additional observations from a re-analysis of the deposited data

How the results depend on the processing

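No paired analysis was possible because each time point has a single array. Of 80 log2 ratios of the 10 genes under 8 alternatives (median, quantile, loess and spike-in scaling, normexp on the median spot intensity, the deposited value table, the mean over probes, and leaving out areas where at least 3 spots within 100 µm changed in one direction), 78 moved by less than 1 within-array error and 0 passed 2-fold. The other 2 were those of Cdkn1a, 0.0434 under median scaling and 0.0615 under scaling to spike-in controls, which raise all ratios. Cdkn1a, Ccnd1 and Trp53 were the 3 genes whose sign changed, each under these scalings. Of the 23 spots of the set, 0 lay in such areas, which held 5.18% of spots. The count of 78 is no test of robustness. No alternative shifted the median ratio of all detected genes by more than 0.12, against a median within-array error of 0.204. The deposited value table differed by at most 0.497%. The limit of 2 within-array errors from 0, chosen after seeing the data, was passed by 1 of the 10 genes upward and 2 downward, against 0 and 0 past 2-fold in the other settings. Over all genes the counts were 95 higher and 260 lower, and the split moved to 130 and 205 under median scaling and to 138 and 186 under scaling to spike-in controls. Normexp gave 38 and 118. Its offset of 50, added to every intensity, draws the ratios of dim spots toward 0 by construction. This also holds for the values of dim genes given above with normexp correction. How far the offset made the lower counts was not tested. No filter on dim probes gave 492 and 983, and detection on at least 1 array 192 and 507, as both admit dim probes. By construction, passing 2-fold by more than 2 errors gave 25 and 99, the 1.5-fold limit 520 and 831, and 2 errors from 0 gave 1087 and 1338. Of 540 values of the further lists, 504 were labelled the same and 36 moved. Counts had to stay within 1.5 times, and list medians within 0.204, the median within-array error of single genes. That limit is not an error of a list median. It is also wider than the median shift over all detected genes under the 8 alternatives, at most 0.12. For the list medians the label is thus no measure of stability. Dim genes are limited by signal, since the dimmest spots called well above background had an intensity of 17.3 on the array before loading and 17.8 on the other.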
